A study of Mus musculus with 38 samples.

Results

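Glutamine use and amino acid uptake were followed through 9 genes, taken by symbol from a table of 21705 genes, and all 9 symbols were found: Gls2, Glul, Slc38a1, Slc38a2, Slc1a4, Slc1a5, Slc7a5, Slc3a2 and Slc7a11. Their levels are described across 38 RNAseq libraries in 10 groups, which comprised 3 mouse kidney tumour cell lines grown with and without doxycycline (Dox), kidney tumours of the same 3 genotypes, and normal kidney. The MYC genotype (MYC+ in the labels) carried a Dox-inducible MYC transgene driven in renal tubule cells by the Ksp-cadherin promoter (Ksp-rtTA; Tet-O-MYC). VM (Vhl-/-; MYC +) added KspCreERT2; Vhl F/F, in which tamoxifen deletes Vhl in the same cells, and VIM (Vhl-/-; MYC +; Ink-/-/Arf-/-) further added germline loss of Ink4a/Arf in every cell of the animal. The cells named MYC-2983, VM-3055 and (for VIM) VIM-3039 are each 1 line from 1 mouse, so genotype and line cannot be told apart in culture. For each line, 4 libraries came from cells maintained on 2 µg/ml Dox and 4 from cells collected 24 h after plating without it. Each tumour genotype had 3 libraries from mice kept on Dox, where MYC tumours 2 and 3 came from a single mouse, 2983, which also gave the MYC-2983 line, and VM tumour 2 came from the mouse that gave VM-3055. The 5 normal kidneys were wild type and vehicle-treated. In the titles, kidneys 1 and 3 carry the prefix B6 and kidneys 2, 4 and 5 the prefix KT, which the labels do not spell out. Hence genotype, Dox and tumour state cannot be told apart in comparisons with them. The ages at which tissues were collected were not given in the sources used here.

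Glutamine is the most abundant amino acid in blood and feeds cells both carbon and nitrogen. Glutaminases split it into glutamate and ammonia, and glutamine synthetase makes it again. Cells take it up through sodium-coupled carriers and can trade it for essential amino acids or, as glutamate, for cystine. In the kidney, tubule cells take filtered amino acids back into the blood and release ammonia from glutamine to excrete acid, and MYC is a known driver of glutamine uptake and use in dividing cells.

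The units are RSEM abundance estimates that the authors scaled to an upper quartile of 1000 in each library. They scale with transcript length, so levels are compared between genes only per kb of the longest annotated coding transcript. A gene passed the test in a comparison when its Benjamini-Hochberg adjusted p from limma, over all genes tested, was under 0.05 and its log2 change was above 1 in size. Values are mean ± SD over libraries. Estimated depth was 12.4 to 36.6 M reads in the cell libraries, 8.22 to 15.4 M in the tumours and 11.8 to 15.5 M in the kidneys. Whether the 4 libraries of a line and condition came from separate cultures was not stated, so p-values in the cells measure the spread between these libraries, which may be technical. As a check of the labels, Vhl stood at 451 ± 12.2 units in MYC-2983 cells given Dox, 13.1 ± 2.07 in VM-3055 and 12.7 ± 4.01 in VIM-3039, and Cdkn2a, the Ink4a/Arf locus, at 29.98 ± 4.09 units in VIM-3039 and 3804 ± 360 in VM-3055. In tumours, Vhl read 53.6 ± 22.8 units in VM, 252 ± 51.7 in VIM and 499 ± 52.3 in MYC, beside 686 ± 69.0 in kidney. Cdkn2a read 4013 ± 538 units in VM tumours, 53.1 ± 36.7 in VIM tumours and 1.37 ± 1.56 in kidney. MYC tumours 1 to 3 read 108, 2872 and 59.3 units of Cdkn2a. MYC tumour 3 thus lay within the VIM tumour range of 30.1 to 95.5, and MYC tumour 1 just above it. The table has no row for the transgene. The mouse Myc row was lower with Dox in all 3 lines (log2 change -1.44 to -1.96), and since transgene reads cannot be separated in it, this row does not check the Dox labels, and "with Dox" below means the libraries labelled so.

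Upstream sequence is shown for the 3 transporters in which a searched motif was found: Slc7a11, Slc38a2 and Slc3a2. The RefSeq table (GRCm38.p6) matched 5 of the 9 genes, these 3 with Glul and Slc1a4, and did not match Gls2, Slc1a5, Slc7a5 and Slc38a1. The 250 bases before each transcript start are printed 5′ to 3′ on the gene's strand, at chr3:50443614-50443863 (minus strand) for Slc7a11, chr15:96699729-96699978 (minus) for Slc38a2 and chr19:8713898-8714147 (minus) for Slc3a2. Capitals mark matches on either strand to the motifs CACGTG (the E-box that MYC binds), TGATGNAA (the C/EBP-ATF element of amino acid starvation), TGACNNNGC (the core of the antioxidant element) and ACGTG (the core of the hypoxia element, which is also contained in CACGTG).
Slc7a11: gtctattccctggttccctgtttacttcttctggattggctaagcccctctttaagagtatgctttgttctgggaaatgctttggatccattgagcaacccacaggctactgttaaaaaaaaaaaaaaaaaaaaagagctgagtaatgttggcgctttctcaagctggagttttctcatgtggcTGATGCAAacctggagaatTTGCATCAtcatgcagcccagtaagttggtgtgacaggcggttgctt
Slc38a2: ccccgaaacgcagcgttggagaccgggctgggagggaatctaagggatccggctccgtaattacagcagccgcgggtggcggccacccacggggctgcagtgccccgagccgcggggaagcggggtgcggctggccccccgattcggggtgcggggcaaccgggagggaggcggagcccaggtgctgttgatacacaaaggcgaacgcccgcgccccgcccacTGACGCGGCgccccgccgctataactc
Slc3a2: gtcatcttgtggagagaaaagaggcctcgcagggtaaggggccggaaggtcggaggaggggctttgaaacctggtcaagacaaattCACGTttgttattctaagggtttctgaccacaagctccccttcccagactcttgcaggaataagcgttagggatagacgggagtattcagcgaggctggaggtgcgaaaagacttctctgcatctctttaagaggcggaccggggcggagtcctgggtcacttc
Slc7a11 held 2 matches to TGATGNAA, found in 3.45% of the 32851 promoter windows in the table, Slc38a2 held 1 match to TGACNNNGC, found in 10.2%, and Slc3a2 held 1 match to ACGTG, found in 16.6%. The windows of Glul and Slc1a4 held none of the 4 motifs, and none of the 5 windows held CACGTG, which 6.02% of all windows did. A match is a run of letters and no evidence of binding.

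Gls2 encodes the liver-type glutaminase, a mitochondrial enzyme that turns glutamine into glutamate. It had the steepest response to Dox of the 9 genes in every line. In MYC-2983 cells the 4 libraries read 431, 438, 456 and 419 units with Dox and 13.1, 11.2, 13.9 and 10.3 without. In VM-3055 cells they read 529, 472, 542 and 498 with Dox and 45.9, 38.8, 48.8 and 34.2 without. In VIM-3039 cells they read 332, 299, 295 and 305 with Dox and 30.4, 39.0, 52 and 48.9 without. No library with Dox overlapped one without in any line. The group means in units differed 35.9-fold in MYC-2983, 12.2-fold in VM-3055 and 7.23-fold in VIM-3039 cells. The log2 changes from limma were 5.06 (SE 0.107, adjusted p = 1.81e-17), 3.59 (SE 0.112, adjusted p = 9.48e-15) and 2.85 (SE 0.135, adjusted p = 2.37e-14). Gls2 rose in all 3.

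The size of the Gls2 response differed between lines. The interaction term of limma, which tests whether the Dox change differs, was -1.48 for VM-3055 minus MYC-2983 (95% interval -1.81 to -1.15, adjusted p = 1.84e-07) and -2.21 for VIM-3039 minus MYC-2983 (-2.60 to -1.82, adjusted p = 2.97e-09), and both passed. VIM-3039 minus VM-3055 was -0.73 (-1.13 to -0.34, adjusted p = 0.00501), below the size threshold. As ratios of group means, the lines were closer with Dox than without it, though in units they lay farther apart with Dox. Levels with Dox ran from 308 ± 16.6 to 511 ± 31.5 units, whereas those without Dox ran from 12.1 ± 1.65 in MYC-2983 to 42.6 ± 9.86 in VIM-3039. Because the values without Dox are low, the pseudocount bears on the interaction, which for VM-3055 minus MYC-2983 was -1.0 with 10 units added in place of 1 and -2.08 after quantile normalization, and passed in both.

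Gls2 lies at chr10:127631513-127647060 on the plus strand (mm9, GENCODE M1) and overlaps Spryd4 on the other strand. The kit preserved strand, but whether the counting used it was not given in the sources used here. Spryd4, named for this overlap after its values were seen, read 282 ± 14.2 units with Dox and 281 ± 11.4 without in MYC-2983 cells, 198 ± 11.3 and 188 ± 6.66 in VM-3055, and 343 ± 15.7 and 280.1 ± 3.92 in VIM-3039. Its libraries with and without Dox overlapped in the first 2 lines and did not in VIM-3039.

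In tissue, Gls2 was nearly undetected in normal kidney, with 9 reads over the 5 libraries and levels of 1.26 to 4.02 units, at or under 3 reads in each. In bulk tissue, fewer cells of a type and less RNA per cell cannot be told apart, here and in every tissue comparison that follows. The MYC tumours read 22.4, 285 and 94.6 units, the VM tumours 42.6, 57.7 and 191, and the VIM tumours 109, 203 and 114. Every tumour was above every kidney. Gls2 rose in all 3 genotypes against kidney, by a log2 difference of 4.26 (MYC, SE 0.792, adjusted p = 0.000921), 4.50 (VM, SE 0.691, adjusted p = 0.000144) and 5.29 (VIM, SE 0.691, adjusted p = 4.40e-05). As ratios of library means, with the counting interval of the kidney reads alone, Gls2 was 50.5 (26.6 to 110), 36.6 (19.3 to 79.9) and 53.4 (28.1 to 117) times its kidney level. The first of these takes in both libraries of mouse 2983, and over the 2 MYC mice the ratio was 39.97. The MYC difference of Gls2 was 5.77 without MYC tumour 1 and 2.74 without mouse 2983, and the VM difference was 3.86 without VM tumour 3, all of which passed. Within a genotype the tumours spread widely, with a coefficient of variation of 101% in the MYC tumours.

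Glul encodes glutamine synthetase, which joins ammonia to glutamate. Its levels separated tissue from cells more than they separated conditions. The kidneys read 7818, 9794, 9118, 8689 and 16128 units, the MYC tumours 17781, 11439.8 and 11158, the VIM tumours 6497, 7105 and 9522, and the VM tumours 9381, 3240.2 and 2734. All 6 groups of cells had means from 709.7 ± 27.9 to 1492 ± 42.3 units, below every tissue library. With Dox, the 4 libraries of MYC-2983 read 1455 to 1549 units against 859 to 945 without, a log2 change of 0.75 (SE 0.0343, adjusted p = 4.58e-13). The changes in VM-3055 and VIM-3039 were 0.18 (adjusted p = 0.00170) and 0.30 (adjusted p = 1.16e-06). All 3 were below the size threshold, though no library with Dox overlapped one without.

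VM tumours had less Glul than kidney (log2 difference -1.19, SE 0.370, adjusted p = 0.0170), although VM tumour 1, at 9381 units, lay within the kidney range. This call was lost without VM tumour 2 (adjusted p = 0.0839), without VM tumour 3 (0.105), against the B6 kidneys only (0.157) and after quantile normalization (0.116). MYC and VIM tumours differed from kidney by 0.51 (95% interval -0.41 to 1.43, adjusted p = 0.364) and -0.39 (-1.19 to 0.41, adjusted p = 0.411). After quantile normalization the MYC tumours passed as higher (1.38, adjusted p = 0.0194). VM against MYC tumours differed by -1.70 (95% interval -2.70 to -0.70, adjusted p = 0.0755), with no overlap between their libraries, and did not pass. It passed without VM tumour 1 (-2.25, adjusted p = 0.00660), after quantile normalization (-2.12) and with every library as a sample of its own (-1.59). Glul lies at chr1:155747074-155756853 on the plus strand (mm9) and overlaps A930039A15Rik on the same strand, and 5830403L16Rik and Gm11074 on the other, so reads of these can be shared with it.

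**Figure D1:**
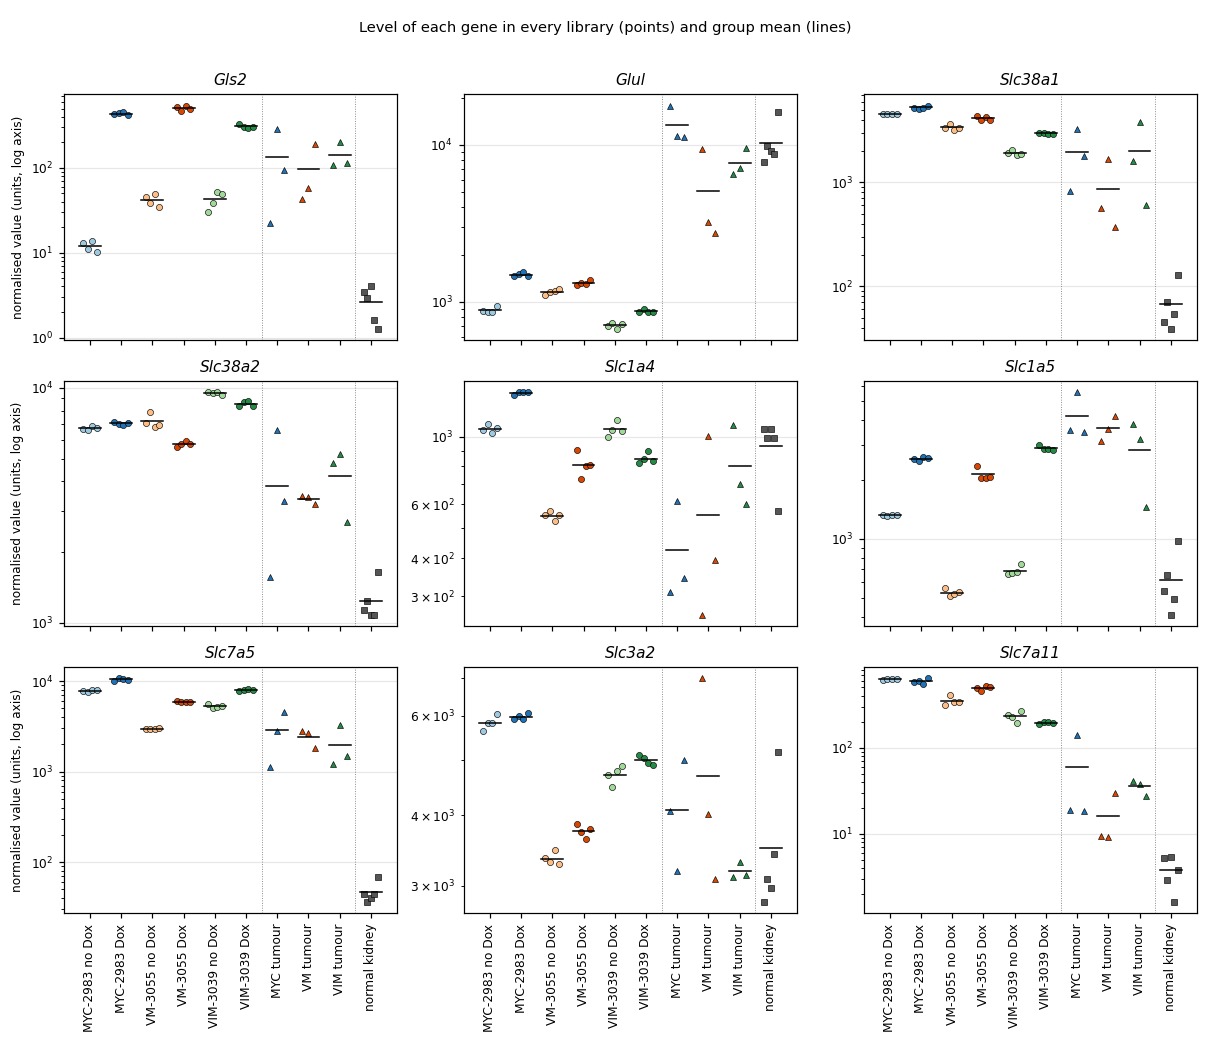
Level of each of the 9 genes in every library (points, 38 in all) with the group mean (line), as upper-quartile-scaled units on a log axis whose range differs between panels. Circles are cell libraries, pale without and dark with Dox, triangles are tumours and squares are normal kidneys. Gls2 separates the cells with Dox (295 to 542 units) from those without (10.3 to 52). Gls2, Slc38a1, Slc7a5 and Slc7a11 lie lower in every normal kidney than in any other library. Slc38a2 also has its lowest group mean in normal kidney.

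Slc1a5 encodes ASCT2, an exchanger that brings in glutamine against other neutral amino acids. It was the second gene to rise with Dox, in 2 of the 3 lines. In VM-3055 cells it read 2336, 2048, 2041 and 2070.2 units with Dox and 560.0, 512, 521 and 539 without. In VIM-3039 cells it read 2995, 2858, 2847 and 2815 with Dox and 659, 667, 677 and 747 without. In MYC-2983 cells it read 2555, 2489, 2601 and 2575 with Dox and 1328, 1298, 1328 and 1328 without. No libraries with and without Dox overlapped. The rise was 3.99-fold in VM-3055 (log2 change 1.99, SE 0.0528, adjusted p = 1.31e-15) and 4.19-fold in VIM-3039 cells (2.07, SE 0.0403, adjusted p = 1.35e-20). In MYC-2983 cells the means differed 1.94-fold (log2 change 0.95, SE 0.0253, adjusted p = 2.64e-16), just under the size threshold, and passed it after TMM rescaling (1.07).

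Slc1a5 responded more to Dox in both Vhl-deleted lines than in MYC-2983. The interaction was 1.04 for VM-3055 minus MYC-2983 (95% interval 0.92 to 1.16, adjusted p = 1.73e-11) and 1.11 for VIM-3039 minus MYC-2983 (1.02 to 1.21, adjusted p = 6.72e-14), and the first fell to 0.99 without VM-3055 Dox replicate 1, the highest of its group. VIM-3039 minus VM-3055 was 0.08 (-0.06 to 0.22, adjusted p = 0.425). Gls2 and Slc1a5 thus differed between the lines in opposite directions, Gls2 changing most in MYC-2983 and Slc1a5 least. In both genes the ratios between the lines were larger without Dox than with it. Slc1a5 without Dox read 1320.3 ± 15.2 units in MYC-2983 and 533 ± 21.1 in VM-3055.

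In tissue, Slc1a5 read 542, 657, 408, 497 and 973 units in the kidneys, 3577, 5569 and 3469 in MYC tumours, 3137, 3609 and 4208 in VM tumours, and 3836, 3199 and 1456 in VIM tumours. Every tumour was above every kidney. The difference was 6.58-fold in MYC (log2 2.77, SE 0.362, adjusted p = 7.00e-05), 5.94-fold in VM (2.62, SE 0.316, adjusted p = 2.12e-05) and 4.60-fold in VIM tumours (2.15, SE 0.316, adjusted p = 0.000112), where means of the MYC tumours are over 2 mice. Slc1a5 rose in all 3. Its highest group mean of the 10 was that of the MYC tumours, at 4205 ± 1183 units, followed by the VM tumours at 3652 ± 537 and by VIM-3039 cells with Dox at 2879 ± 79.7.

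Slc1a4 encodes ASCT1, a related exchanger of alanine, serine and cysteine that carries glutamine poorly. It did not follow Slc1a5. Its Dox change was 0.39 in MYC-2983 (adjusted p = 4.20e-10), 0.55 in VM-3055 (adjusted p = 2.79e-07) and -0.32 in VIM-3039 cells (adjusted p = 9.34e-07). In VIM-3039 the 4 libraries with Dox read 823 to 894 units and those without 999 to 1135. The sign therefore differed between VIM-3039 and the other lines, and the interaction of VIM-3039 minus VM-3055 was -0.87 (95% interval -1.03 to -0.71, adjusted p = 1.58e-08), below the size threshold. In tissue, 4 kidneys read 989 to 1062 units and kidney 5 read 572. MYC tumours read 311, 617 and 343 units and had less Slc1a4 than kidney (log2 difference -1.24, SE 0.435, adjusted p = 0.0365). This call was lost without any of kidneys 1 to 4 (adjusted p 0.0623 to 0.0667), without either MYC mouse (0.241 without MYC tumour 1 and 0.0669 without mouse 2983), against the B6 or the KT kidneys alone (0.0751 and 0.127) and with no filter on low values (0.0787). VM and VIM tumours differed from kidney by -0.96 (adjusted p = 0.0516) and -0.24 (adjusted p = 0.633), and the VM difference passed without VM tumour 2 (-1.51) or without kidney 5 (-1.13).

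**Figure D2:**
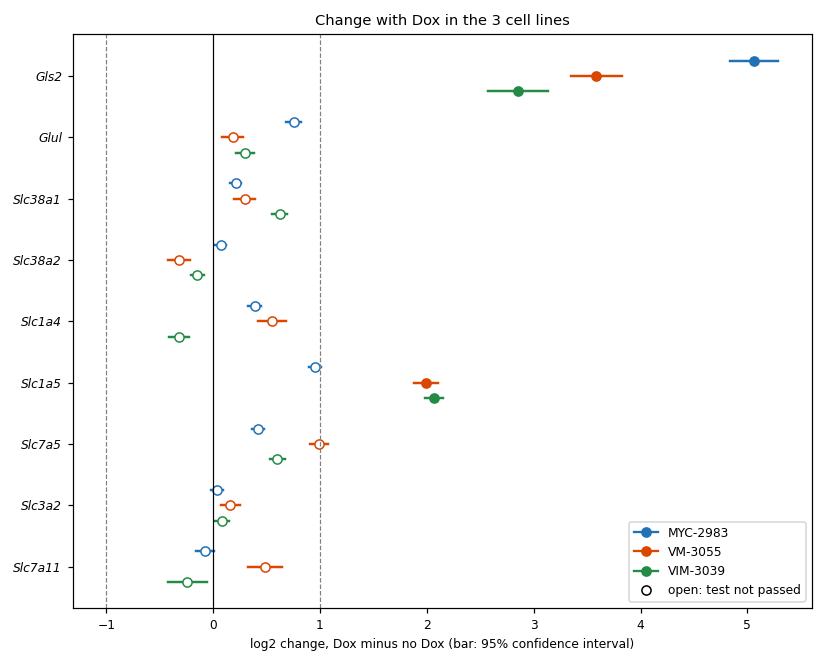
Change with Dox of each gene in the 3 cell lines, as log2 change on the log2(value + 1) scale (points) with 95% confidence intervals (bars), from limma with 4 libraries against 4. Filled points passed the test and dashed lines mark a log2 change of 1 in size. Gls2 passes in all 3 lines (5.06, 3.59 and 2.85) and Slc1a5 in VM-3055 and VIM-3039 (1.99 and 2.07).

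Slc38a1 and Slc38a2 encode SNAT1 and SNAT2, sodium-coupled carriers that concentrate glutamine and other small neutral amino acids in the cell. Neither passed the test with Dox in any line. Slc38a1 read 5149 to 5494 units with Dox and 4533 to 4577 without in MYC-2983 cells, and 2937 to 3013 and 1838 to 2045 in VIM-3039 cells. Its log2 changes were 0.21 in MYC-2983, 0.29 in VM-3055 and 0.62 in VIM-3039. Slc38a2 had changes of 0.07, -0.32 and -0.15, and its libraries with and without Dox did not overlap in any line. The lower value with Dox in VM-3055 was 5767 ± 133 units against 7196 ± 487.

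Both genes were higher in tumours. Slc38a1 read 38.8 to 128 units in the 5 kidneys, 834, 3302 and 1787 in MYC tumours, 566, 1680.4 and 372 in VM tumours, and 1595, 3812 and 608 in VIM tumours. No tumour overlapped a kidney. Slc38a1 rose 25.2-fold in MYC (log2 4.56, SE 0.719, adjusted p = 0.000283), 13-fold in VM (3.51, SE 0.628, adjusted p = 0.000459) and 29.9-fold in VIM tumours (4.64, SE 0.628, adjusted p = 5.82e-05). Its MYC difference was 5.36 without MYC tumour 1 and 3.75 without mouse 2983, its VM difference 2.89 without VM tumour 2, and its VIM difference 3.99 without VIM tumour 2 and 5.31 without VIM tumour 3, and all still passed. Slc38a2 read 1078 to 1655 units in kidney and rose by 1.19 in MYC (adjusted p = 0.0191), 1.46 in VM (adjusted p = 0.00198) and 1.73 in VIM tumours (adjusted p = 0.000624). MYC tumour 1, at 1570.0 units of Slc38a2, lay below the highest kidney, and the MYC difference was 2.02 without it. The MYC call was lost without mouse 2983 (0.36, adjusted p = 0.464) and against the B6 or the KT kidneys alone (adjusted p = 0.0626 and 0.0749).

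Slc7a5 and Slc3a2 encode the light and heavy chains of the LAT1 transporter, in which the light chain exchanges intracellular glutamine for leucine and other large neutral amino acids and the heavy chain carries the pair to the membrane. The light chain differed with Dox and the heavy chain hardly did. Slc7a5 read 10107, 10706, 10569 and 10269 units with Dox and 7691, 7664, 7894 and 7915 without in MYC-2983 cells. It read 6093, 5887, 5847 and 5803 with Dox and 2968, 2918, 2968 and 3031 without in VM-3055 cells, and 7821 to 8119 and 4996 to 5535 in VIM-3039 cells. None of these ranges overlapped. The log2 changes were 0.42 (SE 0.0266, adjusted p = 5.91e-11), 0.99 (SE 0.0394, adjusted p = 1.90e-13) and 0.60 (SE 0.0327, adjusted p = 2.47e-13), all under the size threshold, and that of VM-3055 passed it after TMM rescaling (1.20), after quantile normalization (1.04) and, barely, without VM-3055 no Dox replicate 4. The changes of Slc3a2 were 0.03 (adjusted p = 0.237), 0.16 (adjusted p = 0.00158) and 0.08 (adjusted p = 0.0226).

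The gap between the chains was wider in tissue. Slc7a5 read 45, 36.5, 40.2, 44.0 and 68.3 units in the kidneys, 1120.3, 2844 and 4582 in MYC tumours, 2787, 2658 and 1820.0 in VM tumours, and 1211, 3259 and 1494 in VIM tumours. Every tumour stood far above every kidney. Slc7a5 rose 51.7-fold in MYC (log2 5.45, SE 0.448, adjusted p = 2.62e-06), 51.8-fold in VM (5.67, SE 0.391, adjusted p = 3.10e-07) and 42.5-fold in VIM tumours (5.28, SE 0.391, adjusted p = 7.05e-07). The MYC difference was 6.31 without MYC tumour 1 and 4.59 without mouse 2983, and passed in both. Slc3a2 read 2809.7 to 5174 units in kidney and 3079 to 6984 in the 9 tumours. Its differences were 0.26 (95% interval -0.36 to 0.89), 0.38 (-0.17 to 0.92) and -0.10 (-0.64 to 0.45), and none passed. Per kb, the heavy chain in kidney was at 1241 ± 343 units and the light chain at 13.3 ± 3.55, whereas in MYC-2983 cells with Dox they were at 2122 ± 26.4 and 2962 ± 77.9. Slc7a5 lies at chr8:124405052-124431594 on the minus strand (mm9) and overlaps Gm20388 on the other strand.

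**Figure D3:**
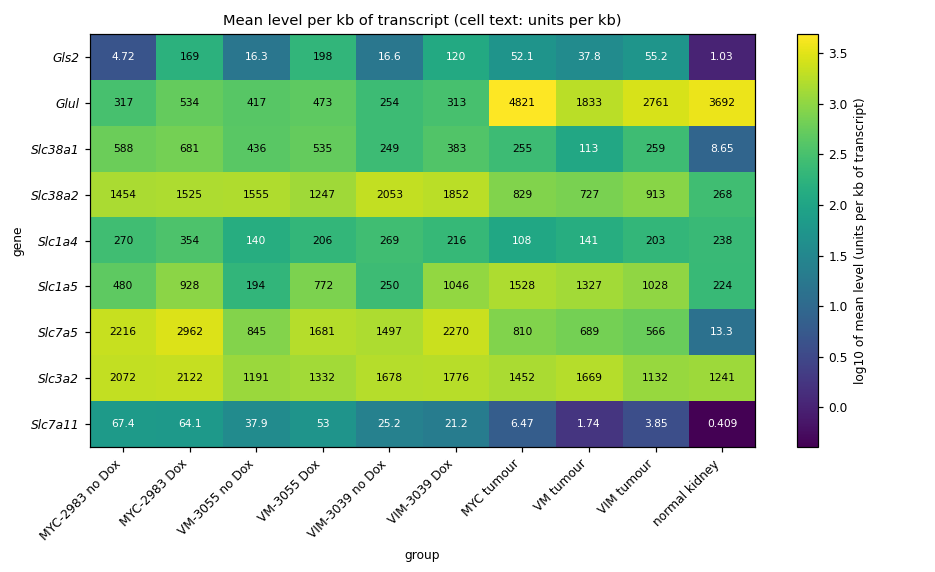
Mean level of each gene per kb of its longest annotated coding transcript in the 10 groups (colour on a log10 scale, printed values in units per kb). Glul is the highest of the 9 in normal kidney at 3692 units per kb, and Slc7a5 is the highest in MYC-2983 cells with Dox at 2962.

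Slc7a11 encodes xCT, which with the same heavy chain takes up cystine in exchange for glutamate. Its levels followed the line more than Dox. It read 584, 595, 549 and 636 units with Dox and 606, 623, 626 and 634 without in MYC-2983 cells, 486, 449, 516 and 504 with Dox and 312, 408, 339.5 and 340.3 without in VM-3055 cells, and 186, 199.6, 200.1 and 196 with Dox and 239, 229, 194 and 268 without in VIM-3039 cells. The ranges overlapped in MYC-2983 and VIM-3039 and not in VM-3055. The log2 changes were -0.08 (adjusted p = 0.110), 0.49 (adjusted p = 1.80e-05) and -0.24 (adjusted p = 0.0178). With Dox, VIM-3039 had less Slc7a11 than VM-3055 (2.50-fold, log2 difference -1.32, SE 0.0609, adjusted p = 1.12e-11) and than MYC-2983 (3.03-fold, -1.59, SE 0.0531, adjusted p = 2.47e-12).

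Slc7a11 was low in tissue. The kidneys read 1.63 to 5.35 units, from 13 reads over 5 libraries. MYC tumours read 18.7, 142 and 18.4, VM tumours 9.32, 9.28 and 29.6, and VIM tumours 41.4, 37.6 and 27.5, so every tumour was above every kidney and below every cell library. It rose against kidney by 3.13 (SE 0.668, adjusted p = 0.00231), 1.70 (SE 0.583, adjusted p = 0.0274) and 2.99 (SE 0.583, adjusted p = 0.000936) in MYC, VM and VIM tumours. The ratios with the counting interval of the kidney reads were 15.8 (9.24 to 29.7, and 13.1 over the 2 MYC mice), 4.25 (2.49 to 7.99) and 9.40 (5.5 to 17.7). The VM call was lost without VM tumour 3 (1.18, adjusted p = 0.143), without kidney 2 or 4, against the B6 kidneys only (adjusted p = 0.260), with 10 units added in place of 1 (0.84) and with every library as a sample of its own (adjusted p = 0.0530). The MYC call was lost without mouse 2983 (2.11, adjusted p = 0.0658), and its difference was 4.16 without MYC tumour 1.

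The 9 genes can be read against all genes tested, as can the lists below. The 9 and all gene lists were chosen with earlier results of these data known, so these shares are descriptions and not a test. Shares of all genes at an unadjusted p under 0.05 are not given. Counts at that threshold, here and below, therefore cannot be read as particular to the genes counted. With Dox, 1 of 9 passed in MYC-2983 cells, where 19.5% of 15104 genes passed and 4.49% passed as higher. In VM-3055 cells 2 passed, where 24.8% of genes did and 5.92% as higher, and in VIM-3039 cells 2 passed, where 24.3% did and 7.67% as higher. All of these were higher with Dox. In the order MYC-2983, VM-3055, VIM-3039, the median log2 change of the 9 was 0.39, 0.49 and 0.30, beside -0.13, -0.26 and -0.15 over all genes tested. The median of all genes moved by 0.11, 0.21 and 0.14 under TMM rescaling, and of the genes passing in VM-3055 the share that was higher moved from 23.8% to 38.9% (48.4% after quantile normalization), so the small changes of single genes are relative to the scaling used. The 3 interactions called 0 (VIM-3039 minus VM-3055), 2 (VM-3055 minus MYC-2983) and 2 (VIM-3039 minus MYC-2983) of the 9, beside 6.05%, 8.78% and 9.06% of all genes. For the interaction with 0, 6 of the 9 had an unadjusted p from limma under 0.05 and voom on estimated reads also called 0.

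Between the lines with Dox, 1 of the 9 passed for VIM-3039 against VM-3055 (19.1% of all genes), 0 for VM-3055 against MYC-2983 (24.6%) and 1 for VIM-3039 against MYC-2983 (23.9%). Slc7a11 was the one that passed in both comparisons with VIM-3039. For VM-3055 against MYC-2983 all 9 had an unadjusted limma p under 0.05 and voom also called 0. Slc7a5 and Slc1a4 came nearest to the size threshold there, with differences of -0.82 and -0.78. These 3 comparisons share libraries, and each line comes from 1 mouse, so the differences are between lines. Fibroblast and mural markers differed with the lines too: against MYC-2983, 5 of 5 were lower in VM-3055 (median -4.67) and 4 of 5 in VIM-3039 (median -3.24), with sums of 231 to 265 units in MYC-2983, 4.39 to 7.66 in VM-3055 and 35.4 to 58.2 in VIM-3039 cells given Dox. Their part in the differences between lines was not tested.

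Against normal kidney, 7 of the 9 passed in MYC tumours (6 higher), 7 in VM tumours (6 higher) and 6 in VIM tumours (all higher), beside 32.6%, 37.6% and 37.2% of all genes passing and 17.4%, 16.4% and 17.9% passing as higher. The 3 comparisons share the same 5 kidneys. The median difference of the 9 was 2.77, 1.70 and 2.15, beside 0.12, -0.03 and 0.00 over all genes. Gls2, Slc38a1, Slc38a2, Slc1a5, Slc7a5 and Slc7a11 were the 6 higher ones in each genotype. Leaving out mouse 2983 (MYC tumours 2 and 3) left 4 in the MYC comparison.

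Markers of other cell types moved with the comparisons against kidney. The 9 proximal tubule markers, which include the transporters of the brush border and the uptake receptor Lrp2, summed to 294758 to 326936 units in the kidneys and 3181 to 18646 in the tumours, and all 9 were lower in each genotype. The 8 markers of the loop, distal tubule and collecting duct summed to 76479 to 166793 units in the kidneys, highest in kidney 5, and to 7.40 to 7137 in the tumours, where all 8 were lower in each genotype. Leukocyte markers (6 genes) summed to 894 to 2024 units in kidney and 923 to 4371 in the tumours, and fibroblast and mural markers (5 genes) to 1191 to 3962 and 422 to 9182, highest in MYC tumour 2. Endothelial markers (4 genes) summed to 2289 to 4077 units in kidney and 138 to 1372 in the tumours, where 3, 3 and 4 were lower in MYC, VM and VIM. Glomerulus markers (3 genes) summed to 1927 to 5001 and 184 to 1611, with 2 lower in each genotype. The 4 kidney epithelium markers summed to 18623 to 27256 in kidney and 8358 to 17544 in the tumours, with 1 higher in each genotype and 1, 2 and 2 lower. Kidney 5 also had the highest Glul, Slc38a1, Slc38a2, Slc1a5, Slc7a5 and Slc3a2 and the lowest Slc1a4 of the kidneys. The part of cell composition in the differences from kidney was not tested. The cells held the 4 kidney epithelium markers at 5721 to 17312 units (5721 to 12567 with Dox and 9894 to 17312 without) and endothelial markers at 0 to 12.5, with all 4 endothelial genes at or under 3 reads in VIM-3039 cells.

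**Figure D4:**
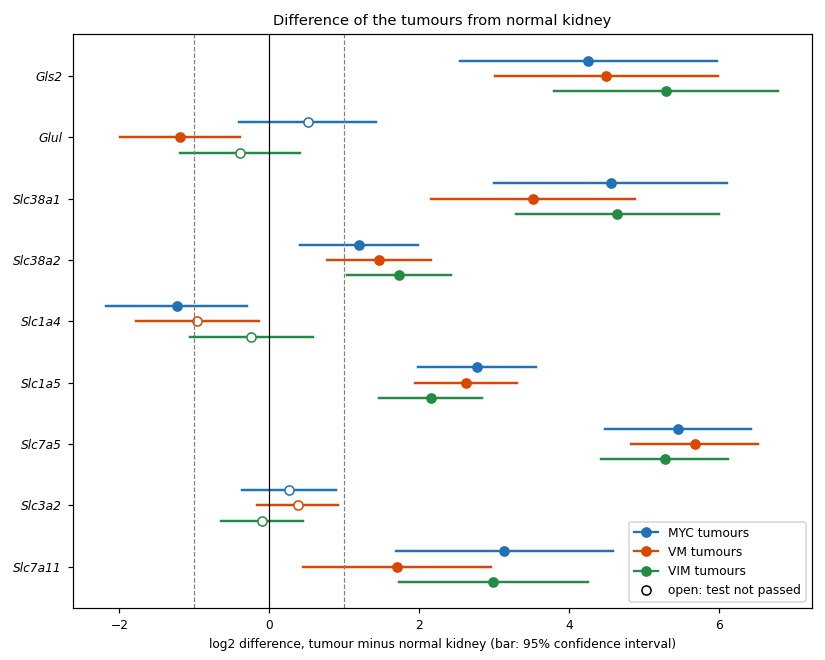
Difference of each tumour genotype from normal kidney, as log2 difference on the log2(value + 1) scale (points) with 95% confidence intervals (bars), from 1 limma fit with mice as samples (2 MYC, 3 VM and 3 VIM mice, 5 kidneys). Filled points passed the test and dashed lines mark 1 in size. Slc7a5 lies at 5.28 to 5.67 in the 3 genotypes and its partner Slc3a2 at -0.10 to 0.38.

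Between tumour genotypes, 0 of the 9 passed for VIM against VM, VM against MYC or VIM against MYC tumours in limma, beside 2.65%, 2.31% and 4.17% of all genes. At an unadjusted p under 0.05 the counts were 0, 1 and 0, the 1 being Glul, and voom called 0 in all 3. The intervals were wide: for Gls2, VIM against VM tumours differed by 0.80 (95% interval -0.87 to 2.47), and for Slc7a11 by 1.28 (-0.13 to 2.69). Glul passed for VIM against VM without VM tumour 1 (1.35, adjusted p = 0.0403).

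The order of the 10 groups differed among the genes. The 3 groups with Dox stood first for Gls2, and neighbours from VIM tumours down to VM-3055 cells without Dox overlapped in range. For Glul the 4 tissue groups stood first, and each overlapped the next in that order except the last, the VM tumours, which did not overlap MYC-2983 cells with Dox. The 6 groups of cells stood first for Slc38a2, Slc7a5 and Slc7a11. For Slc1a4, 8 of the 9 neighbouring pairs overlapped, and its means spanned 3.28-fold in all, and for Slc3a2 7 pairs overlapped and the span was 1.87-fold. Slc7a5, Gls2 and Slc7a11 spanned 223-, 192- and 165-fold. Within a group, cell libraries had a coefficient of variation of 0.418% to 23.2% for the 9 genes and tumours 3.43% to 119%.

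By Pearson's r over the 10 group means, among 13345 genes, those most like Gls2 were Tbl2 (r = 0.98), Zfp598 (0.98) and Ppp1r7 (0.97), those most like Slc1a5 were Atrip (0.97), Ubr7 (0.96) and Tfap4 (0.95), and those most like Slc7a5 were Kif20a, Hn1 and Kif2c (0.99 each). Glul was most like Col15a1 (0.99), Slc38a1 was most like Cd109 (0.98), Slc38a2 like Sdc1 (0.99), Slc1a4 like Asna1 (0.86), Slc3a2 like Ina (0.93) and Slc7a11 like Helz (0.98). Among the 9, Slc7a5 and Slc38a1 were the most alike (r = 0.96) and Glul and Slc38a2 the least (-0.83). These are descriptions over 10 groups that share lines and scaling.

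Of 24 other enzymes of glutamine and glutamate, 4 rose and 0 fell with Dox in MYC-2983 cells, 7 of 23 tested rose and 2 fell in VM-3055, and 6 of 24 rose and 0 fell in VIM-3039. Over all genes tested, 4.49%, 5.92% and 7.67% passed as higher and 15%, 18.9% and 16.6% passed as lower in the 3 lines. Cad, whose product uses glutamine nitrogen in the first steps of pyrimidine synthesis, went from 2266 to 5722 units in MYC-2983 (log2 change 1.34, SE 0.0322, adjusted p = 7.84e-17), from 2543 to 9303 in VM-3055 (1.87, SE 0.0497, adjusted p = 1.34e-15) and from 1704 to 6746 in VIM-3039 (1.98, SE 0.0359, adjusted p = 5.52e-21). Ppat and Pfas, which use glutamine in purine synthesis, rose in all 3 lines, Pfas by 1.02, 1.40 and 1.80 in MYC-2983, VM-3055 and VIM-3039. Prodh, which opens the breakdown of proline toward glutamate, rose by 1.21, 2.32 and 2.61. Psat1, which uses glutamate in serine synthesis, rose by 1.65 in VM-3055 and 1.39 in VIM-3039. Nadsyn1 and Aldh4a1, named after their values were seen, were the 2 that fell in VM-3055 (log2 changes -1.39 and -1.36). Where 0 fell, 7 (MYC-2983) and 4 (VIM-3039) were lower at an unadjusted limma p under 0.05, and voom also called 0.

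Against kidney, 12, 12 and 11 of the 24 enzymes rose and 4, 4 and 2 fell in MYC, VM and VIM tumours, beside 17.4%, 16.4% and 17.9% of all genes passing as higher and 15.2%, 21.2% and 19.2% as lower. Aldh18a1, which makes proline precursors from glutamate, stood at 52.8 units in kidney and 2807, 4193 and 2234 in the 3 tumour genotypes (log2 differences 5.82, 6.39 and 5.47). Pycr1, the last step to proline, rose by 4.88, 4.13 and 3.73, and Asns, which makes asparagine with glutamine nitrogen, by 4.32, 4.61 and 4.90. Prodh fell in MYC and VM tumours (log2 differences -1.87 and -2.30) and did not pass in VIM tumours (-0.53), and VIM exceeded VM tumours in Prodh by 1.76 (SE 0.188, adjusted p = 0.000930). In that comparison 2 of 9 proximal tubule, 1 of 8 loop, distal tubule and collecting duct and 1 of 4 kidney epithelium markers were also higher in VIM tumours (medians 1.43, 3.88 and 0.62), and their part in the Prodh difference was not tested.

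Of 33 other amino acid transporters, 4 rose and 3 fell with Dox in MYC-2983 cells (26 tested), 4 rose and 3 fell in VM-3055 (24 tested), and 5 rose and 5 fell in VIM-3039 (25 tested). Over all genes tested, 4.49%, 5.92% and 7.67% passed as higher in the 3 lines. The shares of all genes passing as lower were 15%, 18.9% and 16.6%. These were above the share of the transporters that fell in MYC-2983 and VM-3055 and below it in VIM-3039. Slc6a15, a carrier of branched-chain amino acids and proline, rose by 4.40 in MYC-2983, 2.41 in VM-3055 and 2.98 in VIM-3039. Slc6a18, a glycine carrier of the brush border, fell in all 3 lines (log2 changes -3.54, -4.82 and -1.40), from 416 to 35.4 units in MYC-2983, from 142 to 4.66 in VM-3055 and from 12.3 to 3.92 in VIM-3039, where it was below 50 units. Slc38a3, the glutamine carrier SNAT3, went from 7.96 to 130 units in MYC-2983 cells (log2 change 3.94, SE 0.228, adjusted p = 1.46e-11) and, below 50 units, from 3.11 to 12.4 in VIM-3039, and was at or near the 3-read floor in VM-3055. Against kidney, of 32 tested, 9, 7 and 8 rose and 13, 14 and 12 fell in MYC, VM and VIM tumours. Of all genes, 17.4%, 16.4% and 17.9% passed as higher and 15.2%, 21.2% and 19.2% as lower. Carriers of the tubule that fell in all 3 genotypes included Slc7a13 from 22060 units to 2.56, 0.411 and 21.9, Slc6a20b from 6049 to 56.9, 3.09 and 43.5, Slc1a1, a glutamate carrier, from 7874 to 75.6, 39.5 and 414, and Slc6a19, which reabsorbs neutral amino acids, from 6657 to 76.6, 60.1 and 160.2. Slc38a4, the carrier SNAT4, rose from 35.6 units to 1020, 1295 and 2186 in the same order. These falls moved with the proximal tubule markers above, and the part of cell composition in them was not tested. In VIM against VM tumours, Slc38a3 was higher (1237 against 106 units, log2 difference 3.44, SE 0.639, limma adjusted p = 0.0140). Slc7a8 was lower there (476 against 3144 units, -2.60, adjusted p = 0.0437). The part of cell composition in these 2 was not tested either.

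Of 10 genes of cystine use and glutathione, 2 rose and 0 fell with Dox in MYC-2983, 2 rose and 1 fell in VM-3055, and 1 rose and 1 fell in VIM-3039 cells, beside the shares of all genes given above for each line. Ggt1, which splits glutathione outside the cell, rose by 1.34, 1.52 and 1.71. Cbs, in the path from methionine to cysteine, rose in MYC-2983 (log2 change 1.78) and fell in VM-3055 (-2.22). Against kidney 0 rose and 6, 6 and 5 of the 10 fell in MYC, VM and VIM tumours, beside 15.2%, 21.2% and 19.2% of all genes, while Slc7a11 rose. Also at an unadjusted limma p under 0.05, 0 of the 10 were higher in any genotype, and voom called 0 as higher. For the 0 that fell with Dox in MYC-2983, 3 were lower at an unadjusted p under 0.05 and voom called 0. Ggt1 went from 24142 units in kidney to 2630, 3218 and 2998, and Cth, which makes cysteine, had log2 differences of -2.18, -2.43 and -1.99.

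Of 12 genes of the response to amino acid starvation, 0 rose with Dox in any line and 1 (MYC-2983), 2 (VM-3055) and 5 (VIM-3039) fell, beside 15%, 18.9% and 16.6% of all genes, so the count in MYC-2983 and VM-3055 was under the share of all genes. Named after their values were seen, these were Ddit3 in all 3 lines (log2 changes -1.22, -1.92 and -2.12), Nupr1 in VM-3055 and VIM-3039 (-1.61 and -1.76), and Chac1, Atf5 and Trib3 in VIM-3039 (-1.14, -1.06 and -1.17). At an unadjusted limma p under 0.05, 10, 8 and 9 of the 12 were lower with Dox and 2, 3 and 2 were higher. The share of all genes at this threshold is not given, so these counts cannot be read as particular to the list. Voom called 0 as higher in each line. The median log2 change of the 12 was -0.40, -0.54 and -0.19, beside -0.13, -0.26 and -0.15 over all genes tested. Against normal kidney, 5, 6 and 5 of the 12 rose and 0, 1 and 1 fell in MYC, VM and VIM tumours. Of all genes, 17.4%, 16.4% and 17.9% passed as higher there and 15.2%, 21.2% and 19.2% as lower. Slc7a11 and Slc3a2, whose products import cystine together, did not pass with Dox in any line, and of these 2 only Slc7a11 rose against kidney.

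**Figure D5:**
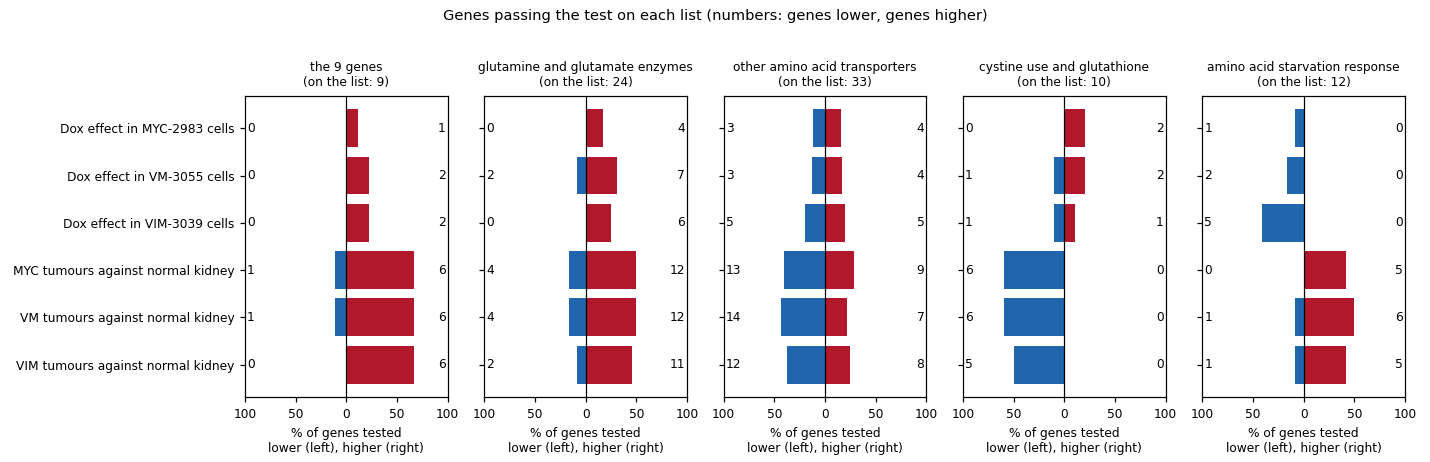
Share of the genes tested on each list that passed as lower (left, blue) or higher (right, red) with Dox in each line and in each tumour genotype against normal kidney, with the counts printed at the edges. Of the 9 genes 6 are higher in each tumour genotype, and of the 10 cystine and glutathione genes 6, 6 and 5 are lower.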

How the data were processed

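RNA from 24 cell line, 9 tumour and 5 kidney libraries was read as stranded poly-A libraries with 75 b paired ends. Per the labels and the methods of the study, the authors aligned reads to mm9 with MapSplice and profiled the alignments with Picard 1.64. They sorted and indexed reads with SAMtools, and with UBU converted them to transcript coordinates and filtered them for indels, large inserts and mapping quality. They then estimated abundance with RSEM on UCSC genes, and rescaled every library so that its upper quartile became 1000. The deposited signal values are these scaled estimates, so no count test was used. Their steps gave 8.22 to 36.6 M estimated reads a library, 94.1% to 95.9% of values under 20 reads being within 0.02 of a whole read, and 3 reads were worth 1.16 to 5.65 units. This floor covers counting error only.

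Values were tested as log2(value + 1) with limma 3.58.1 (R 4.3.3, variance trend, two-sided) across all genes above 0 in at least 4 cell libraries or 2 tissue samples. Each cell comparison used its own groups, the tissue comparisons shared 1 fit, and the 2 libraries of mouse 2983 were averaged. The test was tried on simulated data before use. For VIM tumours against kidney, 12%, 44% and 60% of simulated 2-, 3- and 4-fold changes passed. For Dox in VM-3055 the shares were 44%, 96% and 100%. A 2-fold change sits at the size threshold. Nothing in the sources used here says whether the 4 libraries of a cell group were separate cultures, so p-values measure only the spread between libraries, which may be technical. Groups came from the labels, and the numbers of the VM and VIM lines from the methods. The 9 genes and all gene lists were chosen with earlier results of these data known. From each pathway list, a rule picked up to 4 genes a comparison. These had the greatest change among genes that passed, did not overlap and reached 50 units in a group. Not all genes so picked are described. Those left out include Slc7a3, Slc1a3 and Slc7a2 between lines with Dox, and Got1 and Gpt between tumour genotypes. A gene named in one comparison may also be given in others like it, and genes outside the rule are named as chosen after their values were seen. Alternatives were other pseudocounts (0.1 and 10), filters, scalings (TMM and quantile), groups of samples, leaving out single samples, and voom on estimated reads. Same-numbered replicates did not deviate together (mean r -0.18 in VM-3055, 0.02 in VIM-3039 and 0.06 between these lines with Dox), so they were not paired. Gene positions and transcript lengths are from GENCODE M1 on mm9, and upstream sequences from RefSeq (GRCm38.p6).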

Additional observations from a re-analysis of the deposited data

Results flagged for a closer look

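Of 63 groups of 4 or 5 samples, 10 held a value far from the rest of its group, where chance flags about 1 in 20. In 5 of them the sample was normal kidney 5. It read 16128 units for Glul (nearest other kidney 9794), 1655 for Slc38a2 (nearest 1236), 5174 for Slc3a2 (nearest 3414) and 68.3 for Slc7a5 (nearest 45), each the highest of the kidneys, and 572 for Slc1a4 (nearest 989), the lowest. The others were single cell libraries. Glul read 945 in MYC-2983 no Dox replicate 4 (nearest 871) and 902 in VIM-3039 Dox replicate 2 (nearest 867). Slc1a4 read 1367 in MYC-2983 Dox replicate 1 (nearest 1397). Slc1a5 read 1298 in MYC-2983 no Dox replicate 2 (nearest 1328) and 2336 in VM-3055 Dox replicate 1 (nearest 2070.2).

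The Dox change differed between lines for Gls2 and Slc1a5 by the interaction term of limma. For Gls2 it was -1.48 (SE 0.158, adjusted p = 1.84e-07) for VM-3055 minus MYC-2983 and -2.21 (SE 0.189, adjusted p = 2.97e-09) for VIM-3039 minus MYC-2983. For Slc1a5 the same terms were 1.04 (SE 0.057, adjusted p = 1.73e-11) and 1.11 (SE 0.0476, adjusted p = 6.72e-14).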

How the results depend on the processing

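Over the 9 genes and all alternatives, no gene that passed changed sign, 24 calls were lost and 11 gained. Counts of the 9 that passed moved by over 1.5 times in 5 comparisons, and by less in 2 more (Dox in VM-3055, 2 to 3 in place of 2, and VM tumours against kidney, 5 to 8 in place of 7). With TMM, 2 passed rather than 1 with Dox in MYC-2983 (Slc1a5, 1.07). For the VM-3055 minus MYC-2983 interaction, leaving out single libraries gave 1 to 2 (Slc1a5 was lost without VM-3055 Dox replicate 1). For MYC tumours against kidney, 4 of 7 still passed without MYC tumours 2 and 3, with Slc38a2, Slc1a4 and Slc7a11 lost. For VIM against VM tumours the range was 0 to 1 (Glul, 1.35, without VM tumour 1), and for VM against MYC tumours 0 to 1 (Glul, -2.25, without VM tumour 1), with 1 (Glul) also under quantile scaling and with every library as its own sample. The cause was not tested. With quantile scaling the Gls2 interactions with MYC-2983 were -2.08 (VM-3055) and -2.88 (VIM-3039), and with a pseudocount of 10 the Gls2 difference from kidney was 2.67, 2.83 and 3.54 in MYC, VM and VIM tumours, all passing.

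The values that changed sign passed neither before nor after. Slc7a11 with Dox in MYC-2983 was 0.0383 with TMM. Slc3a2 in VIM tumours against kidney was 0.10 with quantile scaling, 0.14 with B6 kidneys only and -0.17 to 0.0549 (without kidney 5) over left-out samples. For VM against MYC tumours, Gls2 was -0.13 and Slc7a5 -0.0384 with every library its own, and Slc1a5 0.0192 without MYC tumours 2 and 3. Leaving out any other single sample gave -1.28 to 0.67 for Gls2, -0.56 to 0.30 for Slc38a2, -0.27 to 0.70 for Slc1a4, -0.64 to 0.42 for Slc7a5 and -0.21 to 0.38 for Slc3a2. For VIM against MYC tumours, Slc38a1 was -0.14 with every library its own, and Slc7a5 0.69 and Slc7a11 0.87 without MYC tumours 2 and 3. Leaving out any other single sample gave -0.48 to 1.20 for Gls2, -0.72 to 0.76 for Slc38a1, -0.29 to 0.84 for Slc38a2, -1.04 to 0.11 for Slc7a5 and -1.17 to 0.0188 for Slc7a11.

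Counts over all genes moved more. A pseudocount of 10 gave 1936 in place of 2942 for Dox in MYC-2983, 1653 to 2314 in place of 2691 to 3635 between lines with Dox, and 458 to 675 in place of 918 to 1416 for the interactions, where a minimum mean of 10 units gave 541 to 856 (and 2342 in place of 3515 for VIM-3039 against MYC-2983 with Dox). Fits of only the 2 tumour groups compared gave 40 in place of 454 (VIM against VM), 0 of 395 (VM against MYC) and 1 of 713 (VIM against MYC), and no filter gave 251, 210.0 and 387. With single mice left out they spanned 177 to 677, 218 to 649 and 116 to 2260, and the last was 1274 with every library its own. With the replicate block, the Gls2 change in VM-3055 was 3.59 (adjusted p = 2.49e-16) and 3572 genes passed in place of 3554. The block changed no call among the 9.

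Limits: tumours hold mixed cells and 2 to 3 mice a genotype, so a difference between genotypes or from kidney that did not pass is not shown to be absent. Each genotype has 1 cell line. Values near 3 reads, such as Slc7a11 in kidney, carry large counting error.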
